A study of Mus musculus with 2 samples.

Results

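Sycp1, Sycp3, Syce2, Dazl, Piwil1, Piwil2, Spo11, Hormad1, Ccna1 and Dmc1 are genes of male germ cells that act in meiosis or in the piRNA pathway, and they were examined here in mouse fat. The members were all probe sets whose annotated gene symbol is 1 of these 10 names, which gave 12 probe sets of 22690 on the array, 2 each for Dazl and Dmc1 and 1 for each other gene. All 10 were therefore represented among the 12394 genes with a probe set naming a single gene. Epididymal white adipose tissue, the fat pad beside the epididymis and testis, was taken from male mice on standard chow. The knockout pool came from animals 12 weeks old without PPARβ/δ, a nuclear receptor encoded by Ppard, on a mixed Sv129/C57BL/6 background. The wild-type pool came from animals 12 to 16 weeks old, which the design text calls littermates and whose sample label gives the strain 129S1/SvJae. Each pool combined the RNA of 5 animals and was measured on a single Affymetrix array, and the pools are called control fat and knockout fat here. With 1 array per genotype there is no spread between animals, the genotypes could not be tested against each other, and a difference has no replicate check. The age range and, by the sample label, the strain also differed between the pools, and these cannot be told apart from genotype. The number of arrays limits the precision.

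In meiosis, paired chromosomes are joined along their length by the synaptonemal complex and exchange DNA through programmed breaks, before the cell divides into haploid spermatids. The piRNA pathway loads short RNAs onto PIWI proteins, which silence transposons in the male germ line. These genes are known for expression in spermatocytes and other germ cells of the testis, and their promoters are commonly silent in other adult tissues such as fat.

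The members' promoters are shown here because the genes were measured together and the rule that chose them used no sequence. The RefSeq promoter table (GRCm38.p6) held 10 entries for 8 of the members, and Piwil2 and Spo11 had no entry. Each entry covers 300 bases, 250 before and 50 after a start site. Of 7 short motifs searched on both strands, the E-box CACGTG, bound by helix-loop-helix factors, occurred in at least 1 entry of Sycp1, Sycp3, Syce2, Piwil1 and Hormad1, or 5 of 8 genes. By entry the E-box was in 6 of 10, and the 2 entries of Hormad1 overlap and hold the same matches. Over all 32851 entries of this length 7.15% held it. Over the 11378 entries with at least 15 CpG dinucleotides, the lowest number in a member's entry, the share was 11.3%. The 250 bases before the start site of these 5 genes, and of Dazl, whose entry held no E-box, are printed 5′ to 3′ on the strand of the gene, with each CACGTG in capitals.
Sycp1, chr3:102936101-102936350 on the minus strand: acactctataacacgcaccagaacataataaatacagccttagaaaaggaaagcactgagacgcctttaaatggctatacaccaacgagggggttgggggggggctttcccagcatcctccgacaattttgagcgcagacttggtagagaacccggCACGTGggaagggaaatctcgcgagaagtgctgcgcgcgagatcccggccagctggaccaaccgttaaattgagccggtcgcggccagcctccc
Sycp3, chr10:88459337-88459586 on the plus strand: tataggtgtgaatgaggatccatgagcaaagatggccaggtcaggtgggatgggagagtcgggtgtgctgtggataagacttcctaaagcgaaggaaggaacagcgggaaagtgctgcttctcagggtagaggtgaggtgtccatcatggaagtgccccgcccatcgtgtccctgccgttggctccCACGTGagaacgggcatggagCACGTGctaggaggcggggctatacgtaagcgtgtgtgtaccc
Syce2, the downstream of its entries, chr8:84872008-84872257 on the plus strand: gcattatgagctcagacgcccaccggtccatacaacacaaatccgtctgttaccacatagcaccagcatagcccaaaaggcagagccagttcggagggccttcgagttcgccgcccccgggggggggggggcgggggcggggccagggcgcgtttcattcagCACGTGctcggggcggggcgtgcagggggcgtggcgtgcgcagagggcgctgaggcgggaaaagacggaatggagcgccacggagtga
Piwil1, chr5:128735996-128736245 on the plus strand: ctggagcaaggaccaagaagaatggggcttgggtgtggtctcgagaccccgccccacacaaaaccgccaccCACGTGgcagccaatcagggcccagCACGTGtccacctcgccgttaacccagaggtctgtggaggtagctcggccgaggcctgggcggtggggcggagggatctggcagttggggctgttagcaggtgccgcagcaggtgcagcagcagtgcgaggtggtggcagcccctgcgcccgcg
Hormad1, the upstream of its entries, chr3:95559427-95559676 on the plus strand: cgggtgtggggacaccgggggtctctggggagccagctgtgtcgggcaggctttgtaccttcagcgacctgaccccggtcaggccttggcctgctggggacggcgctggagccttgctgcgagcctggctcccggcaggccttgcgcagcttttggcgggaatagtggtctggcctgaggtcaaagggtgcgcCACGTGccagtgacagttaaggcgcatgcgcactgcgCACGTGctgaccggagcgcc
Dazl, chr17:50293621-50293870 on the minus strand: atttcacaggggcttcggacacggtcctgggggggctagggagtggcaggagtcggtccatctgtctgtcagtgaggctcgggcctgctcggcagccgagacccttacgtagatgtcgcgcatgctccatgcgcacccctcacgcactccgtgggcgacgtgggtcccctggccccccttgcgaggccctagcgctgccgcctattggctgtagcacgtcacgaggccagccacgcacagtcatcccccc

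The other motifs were sparser or more widespread. The E2F site TTCCCGC occurred in 4 of 10 entries, of Sycp3, Syce2 and Hormad1, against 4.60% of all entries and 10.3% of those with at least 15 CpG. The STRA8 motif CNCCTCAG occurred in 3 of 10 entries, of Sycp1, Syce2 and Dazl, against 7.94% and 9.71%. In Syce2 it overlapped the E2F site. The GC box GGGCGG occurred in 6 of 10 entries, from 5 of 8 genes, against 35.7% of all entries and 76.8% of those with at least 15 CpG. AACNGTT, a MYB site, occurred in Sycp1 and TGACGT, the start of a cAMP response element, in Dazl, against 4.45% and 7.51% of all entries and 2.27% and 12.8% of those with at least 15 CpG. The RFX motif GTTGCC, found in 12.5% of all entries and 12.6% of those with at least 15 CpG, was in no member's entry. A match describes letters in the window and shows no binding. The entries held 15 to 35 CpG dinucleotides each, whereas the median over all entries in the table, which also lists non-coding genes, was 7 with quartiles of 3 and 20.

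**Figure D1:**
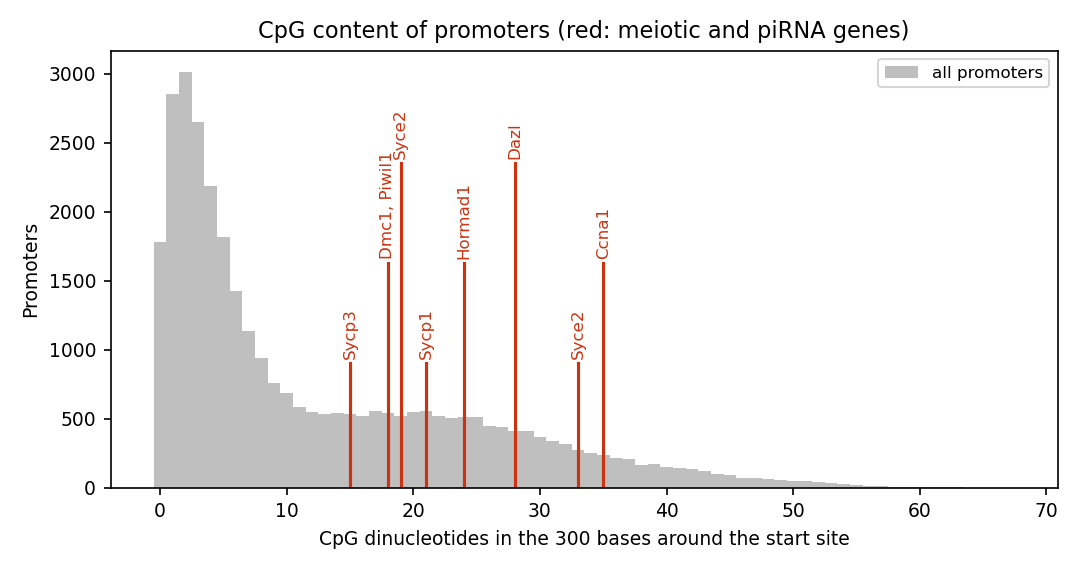
CpG dinucleotides in the 300 bases around the start site (x axis) against the number of promoters (y axis). Grey bars are all 32851 entries of the RefSeq promoter table and red lines, whose height has no meaning, mark the members' entries, which lie between 15 and 35.

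Values are GCRMA intensities on a linear scale, and a difference is the log2 value of knockout fat minus that of control fat. An intensity of 32 (log2 of 5) was taken as a floor below which a value was treated as not measured. Where a value lay below it, it was set to the floor and the fold is given as "at least". A gene with several probe sets was represented by the one with the highest mean. Over all probe sets the median intensity was 22.3 in control fat and 23.0 in knockout fat, and 42.0% and 43.1% reached the floor. The ratio of 3' to 5' control probe sets, which rises with RNA degradation, was 0.80 in control fat and 0.91 in knockout fat for Gapdh, and 2.30 and 2.48 for actin. Ppard itself was below the floor in both pools (6.58 in control fat and 6.27 in knockout fat), and the stretch of transcript that its probe set covers is not known here, so it gives no check of the labels.

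All 12 probe sets of the members were higher in knockout fat as measured, with differences from 0.24 to 4.58 on the log2 scale. They were also higher with the trend of intensity removed, where the lowest difference was 0.31. Removing it moved the median over all genes from -0.07 to 0.02, so it could hardly have made a member lower. Of all genes represented, 41.7% were higher in knockout fat as measured, by any amount. Only Sycp3 and Syce2 reached the floor in control fat, while in knockout fat every member except Dmc1 did. Of the 8 members under the floor in control fat 7 thus reached it in knockout fat, against 10.2% of the 6532 genes that were under it in control fat. With values below the floor set to it, 6 of the 10 members were at least 2-fold higher in knockout fat and none was 2-fold lower, against 5.99% and 4.21% of all 12394 genes. Of the same 8 members 4 were at least 2-fold higher by this count, against 4.78% of those 6532 genes. The median difference of the 10 members was 1.70 with dim values at the floor, 0.70 with a floor of log2 6 and 2.64 as measured, whereas the median over all genes was 0 and -0.07. In bulk RNA, more cells of a type and more RNA per cell cannot be told apart.

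**Figure D2:**
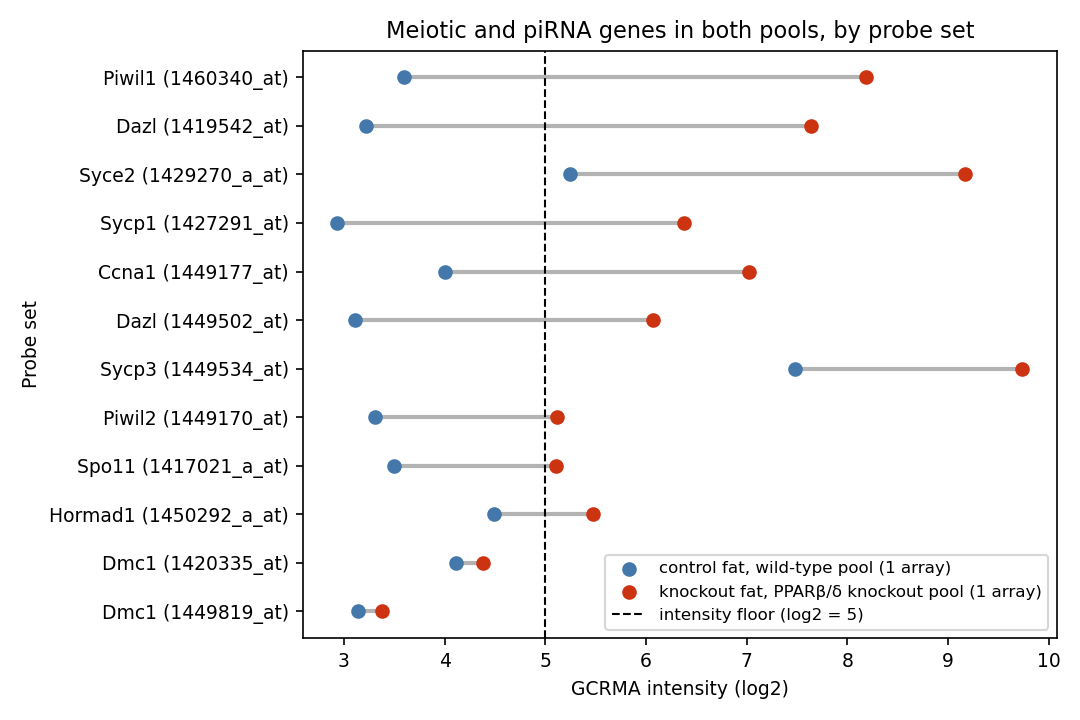
Intensity of each of the 12 member probe sets (rows, named by gene and probe set) on a log2 axis, in control fat (blue) and knockout fat (red), 1 array each, with the floor as a dashed line. Every red point lies to the right of its blue point, and of the wild-type values only those of Sycp3 and Syce2 lie above the floor.

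Sycp1, Sycp3 and Syce2, which encode structural proteins of the synaptonemal complex, were each at least 2-fold higher in knockout fat. Sycp3, a component of the lateral elements that line each chromosome axis, had an intensity of 179 in control fat and 854 in knockout fat, a 4.77-fold difference. Syce2, part of the central element between the paired axes, was at 38.0 in control fat and 575 in knockout fat, 15.1-fold higher. Sycp3 and Syce2 reached the floor in both pools, so their folds are measured values, although with a floor of log2 6 the Syce2 difference of 3.92 on the log2 scale became a bound of 3.17. Sycp1, the transverse filament protein that zips the axes together, was at 7.66 in control fat, below the floor, and 83.3 in knockout fat, at least 2.60-fold higher. Its bound depended on the floor and was 0.38 on the log2 scale with a floor of log2 6, which no longer reaches 2-fold.

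Of other genes of the synaptonemal complex and the meiotic cohesin ring, 5 of 10 listed had a probe set, and 2 of these were at least 2-fold higher. Stag3, a cohesin subunit of meiotic chromosome axes, was at 9.72 in control fat and 342 in knockout fat, at least 10.7-fold higher. Smc1b, the meiotic form of the cohesin subunit SMC1, was at 14.8 and 114, at least 3.57-fold higher. Rec8, the meiotic kleisin, was below the floor in both pools at 9.08 and 13.8, and so was Tex11, at 12.9 and 16.6. The median difference of the 5 genes was 0.22 with dim values at the floor and 1.78 as measured.

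The genes that make and repair the meiotic breaks were mostly near or below the floor. Spo11, the enzyme that cuts the DNA to start recombination, was at 11.3 in control fat and 34.6 in knockout fat. The knockout value lay just above the floor, so its difference was at least 1.08-fold, or 3.07-fold as measured. Hormad1, a protein of unpaired chromosome axes that promotes break formation, was at 22.6 and 44.5, at least 1.39-fold and as measured 1.97-fold higher. Dmc1, the recombinase of meiotic strand exchange, was below the floor in both pools on both of its probe sets. The brighter one was at 17.4 in control fat and 20.9 in knockout fat and the dimmer one at 8.79 and 10.4, so no fold is given for Dmc1.

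Of 22 other recombination genes on the list, 9 had a probe set, and 1 of them was at least 2-fold higher. That gene was Psmc3ip, a partner of DMC1 in strand exchange, at 27.6 in control fat and 121 in knockout fat, at least 3.77-fold higher. With a floor of log2 6 no gene of the list was at least 2-fold higher. Tex15, needed for break repair in spermatocytes, was at 7.40 and 36.7. The other 7 were below the floor in both pools, among them Msh5, of the MutS family (7.55 in control fat and 6.72 in knockout fat) and the exonuclease gene Exo1 (13.5 and 13.2).

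Both PIWI genes were higher in knockout fat as measured. Piwil1, the PIWI protein that binds piRNAs of the pachytene stage and later, was at 12.1 in control fat and 290 in knockout fat. The wild-type value was below the floor, giving a difference of at least 9.07-fold. As measured its difference was 4.58 on the log2 scale, and with dim values at the floor it was 3.18, below the 3.92 of Syce2. Piwil2, the PIWI protein present from spermatogonia onwards, was at 9.90 and 34.7, just above the floor in knockout fat, at least 1.08-fold and as measured 3.50-fold higher. The difference between the 2 genes was not tested.

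Of 22 other piRNA pathway genes on the list, 8 had a probe set, and 2 of these were at least 2-fold higher. Ddx4, the germ cell RNA helicase also called Vasa, was at 25.6 in control fat and 1442 in knockout fat, at least 45.1-fold higher. Tdrd7, a Tudor protein of germ cell granules, was at 354 and 828, a 2.34-fold difference with both values above the floor. The other 6 were below the floor in both pools. Mybl1, the transcription factor of pachytene piRNA genes, was at 9.86 and 11.1, and Dnmt3l, a cofactor of germ line DNA methylation, at 13.4 and 13.3. As measured, with no floor, 5 of the 8 were at least 2-fold higher, against 7.89% of all genes.

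Dazl and Ccna1 represent regulators of the germ line programme. Dazl, an RNA-binding protein that controls translation in germ cells, was at 9.33 in control fat and 199 in knockout fat on the probe set that represents it, at least 6.22-fold higher. Its second probe set was at 8.63 and 67.2, at least 2.10-fold higher. Both probe sets of Dazl thus lay below the floor in control fat and above it in knockout fat. Ccna1, the cyclin A of male meiosis, was at 16.0 and 130, at least 4.05-fold higher.

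Other regulators gave a mixed picture. Of 13 listed genes of germ line RNA binding and meiotic entry, 6 had a probe set, with 1 at least 2-fold higher and 1 at least 2-fold lower. Ddx25, a testis RNA helicase, was at 16.2 in control fat and 738 in knockout fat, at least 23.1-fold higher. Boll, a relative of Dazl, was at 8.67 and 35.6. Cpeb1, a cytoplasmic polyadenylation factor, was at 112 and 55.9, 2.01-fold lower, and Dnd1 was below the floor in both pools, at 9.82 and 9.80.

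Among 11 of 18 listed genes of meiotic division and the cell cycle that had a probe set, 4 were at least 2-fold higher and none 2-fold lower. Cks2, a partner of cyclin-dependent kinases needed in meiosis, was at 57.8 in control fat and 1071 in knockout fat, 18.5-fold higher. Hspa2, the chaperone of spermatocytes that acts on CDK1 and the synaptonemal complex, was at 45.1 and 833, also 18.5-fold higher. Mastl, a mitotic kinase, was at 25.1 and 22.7 and Ccnb3, a germ cell cyclin B, at 5.65 and 5.66, below the floor in both pools. Over the 5 germ line pathway lists together, 39 of 85 listed genes had a probe set, 10 (25.6%) were at least 2-fold higher and 1 was lower, against 5.99% and 4.21% of all genes. Of the 39 genes, 22 were below the floor in both pools.

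**Figure D3:**
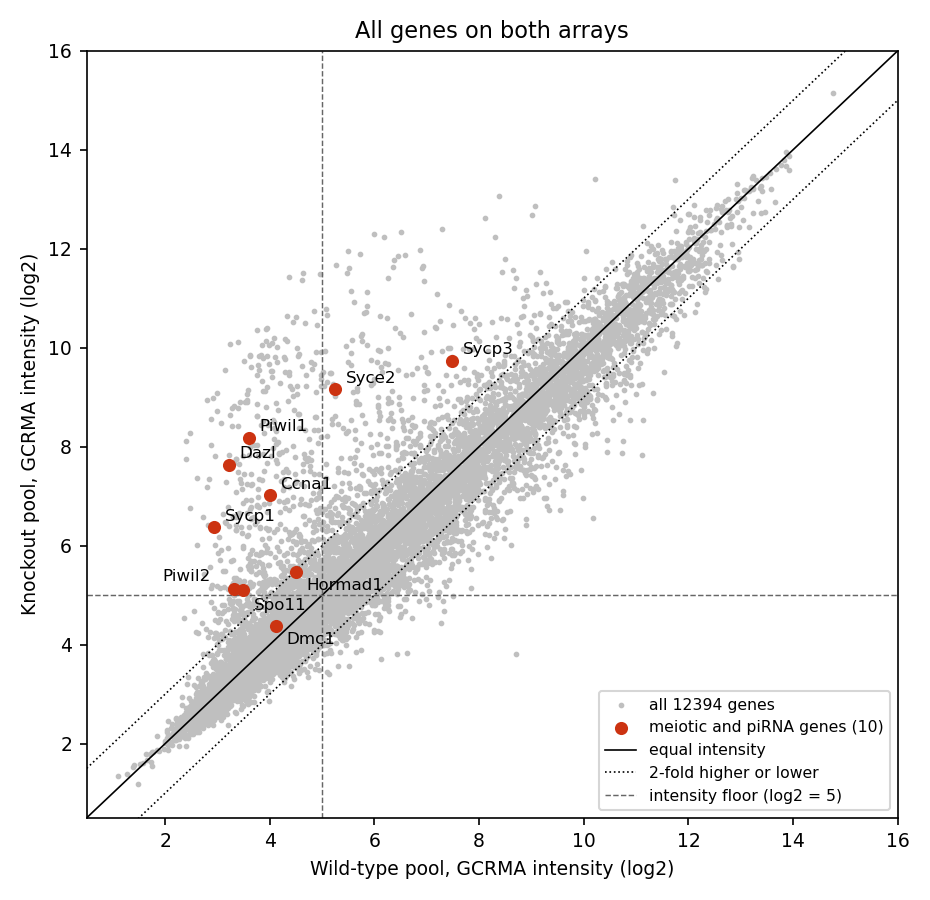
Log2 intensity in control fat (x axis) against the knockout pool (y axis) for all 12394 genes (grey) and the 10 members (red, named). The solid line marks equal intensity, dotted lines a 2-fold difference and dashed lines the floor. As measured, with no floor, 8 of the 10 members lie above the upper dotted line, against 7.89% of all genes. Hormad1 lies just under that line and Dmc1 near the line of equal intensity.

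A list of counterparts used in somatic cells was also counted, without regard to whether they act in germ cells too. Of 10 such genes listed 8 were measured, and none was at least 2-fold higher or lower with dim values at the floor. As measured, with no floor, 1 of the 8 was at least 2-fold higher, against 7.89% of all genes. That gene was Rad51c, at 11.98 in control fat and 31.96 in knockout fat, 2.67-fold higher from values below the floor in both pools. Ccna2, the cyclin A of mitotic cells, was below the floor at 11.1 in control fat and 11.9 in knockout fat. Ago2, an Argonaute protein that carries microRNAs, was at 31.5 and 22.4, also below the floor. Of the somatic cohesin genes, Rad21 was at 1028 in control fat and 815 in knockout fat and Stag2 at 225 and 121, 1.86-fold lower. Smc1a was at 55.3 and 40.7 and Stag1 at 149 and 131. Cdk2 was at 28.8 in control fat, below the floor, and 35.3 in knockout fat. The median of the 8 differences was -0.09 with dim values at the floor and -0.26 as measured. The difference between this list and the members was not tested.

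Genes of other testis cell stages differed in the same pools. Of 8 measured markers of pachytene spermatocytes, the stage at which the synaptonemal complex is complete, 7 were at least 2-fold higher. They ranged from Pgk2, a testis phosphoglycerate kinase, at 44.7 in control fat and 2887 in knockout fat (64.5-fold), and Tbpl1, a relative of the TATA-binding protein, at 31.7 and 966 (at least 30.2-fold), to Tex101 at 9.86 and 97.4. Without probe sets whose suffix (_x_at, _s_at or _a_at) marks shared sequence, 5 genes of this list were represented and 4 of them were at least 2-fold higher. H1f6, the testis linker histone, was below the floor in both pools, at 10.5 and 9.85. All 9 measured markers of elongating spermatids were at least 2-fold higher, from Prm1 (1193 in control fat and 10833 in knockout fat) and Prm2 (539 and 7465) to Odf1 (157 and 5409) and Akap4 (63.4 and 5047). Of 6 measured markers of round spermatids 4 were at least 2-fold higher, led by Acrv1 (15.5 and 916) and Zpbp (15.1 and 554), with Catsper1 at 12.1 and 29.0 and Crem at 54.6 and 43.9. The summed intensity of the markers was 656 in control fat and 12562 in knockout fat for pachytene spermatocytes, 122 and 1920 for round spermatids, and 2962 and 50892 for elongating spermatids. The part of these cell types in the members' differences was not tested.

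Markers of the earliest germ cells and of the somatic cells of the testis were also listed. Of 11 measured markers of spermatogonia, 3 were at least 2-fold higher and 1 lower, against 5.99% and 4.21% of all genes. Below the floor in both pools were 7 of the 11. With the mean of a gene's probe sets, 2 were at least 2-fold higher, against 5.09% of all genes. With the probe set of lowest difference the count was also 2, against 4.15%. Dmrtb1 was at 24.5 in control fat and 797 in knockout fat, Id4 at 30.9 and 127, Ret at 16.0 and 13.8, and Zbtb16, which fat cells also express, at 502 and 236. Of 12 markers of Sertoli cells, the nurse cells of the tubules, 2 were at least 2-fold higher, against 5.99% of all genes. Another 6 of the 12 were below the floor in both pools. Cst9 was at 5.24 in control fat and 215 in knockout fat and Aard at 22.3 and 175, whereas Wt1 was at 32.2 and 31.9 and Dhh at 11.3 and 11.1. Of 5 markers of the steroid-making Leydig cells 1 was at least 2-fold higher, against 5.99% of all genes. That gene, Cyp17a1, was at 44.0 and 312. The other 4 were below the floor in both pools, among them Cyp11a1 (8.54 and 18.5), Star (13.2 and 23.3) and Hsd17b3 (7.91 and 11.8). The summed intensity was 772 and 1574 for spermatogonia, 4134 and 5080 for Sertoli cells, and 83.4 and 384 for Leydig cells. Most of the Sertoli sum came from Cst12, at 3959 and 4475.

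Epididymis and adipocyte markers were measured in both pools. All 8 epididymis markers with a probe set reached the floor on both arrays and none was 2-fold different, with a median difference of 0.32 and a summed intensity of 48471 in control fat and 55415 in knockout fat. Cst11 was at 3635 and 6129, Ros1 at 33.0 and 54.2, Gpx5 at 7698 and 8173, and Cuzd1 at 9657 and 9440. Of 12 adipocyte markers, all above the floor in both pools, 8 were at least 2-fold lower in knockout fat and none was higher, with a median of -1.18 and a summed intensity of 57083 and 35169. Lep was at 1698 and 233, Pparg at 1893 and 370, Adipoq at 10259 and 8030, and Fabp4 at 15004 and 13018. Adipocyte markers of the labelled tissue and epididymis markers were thus both present in both pools. The part of either in the members' differences was not tested.

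**Figure D4:**
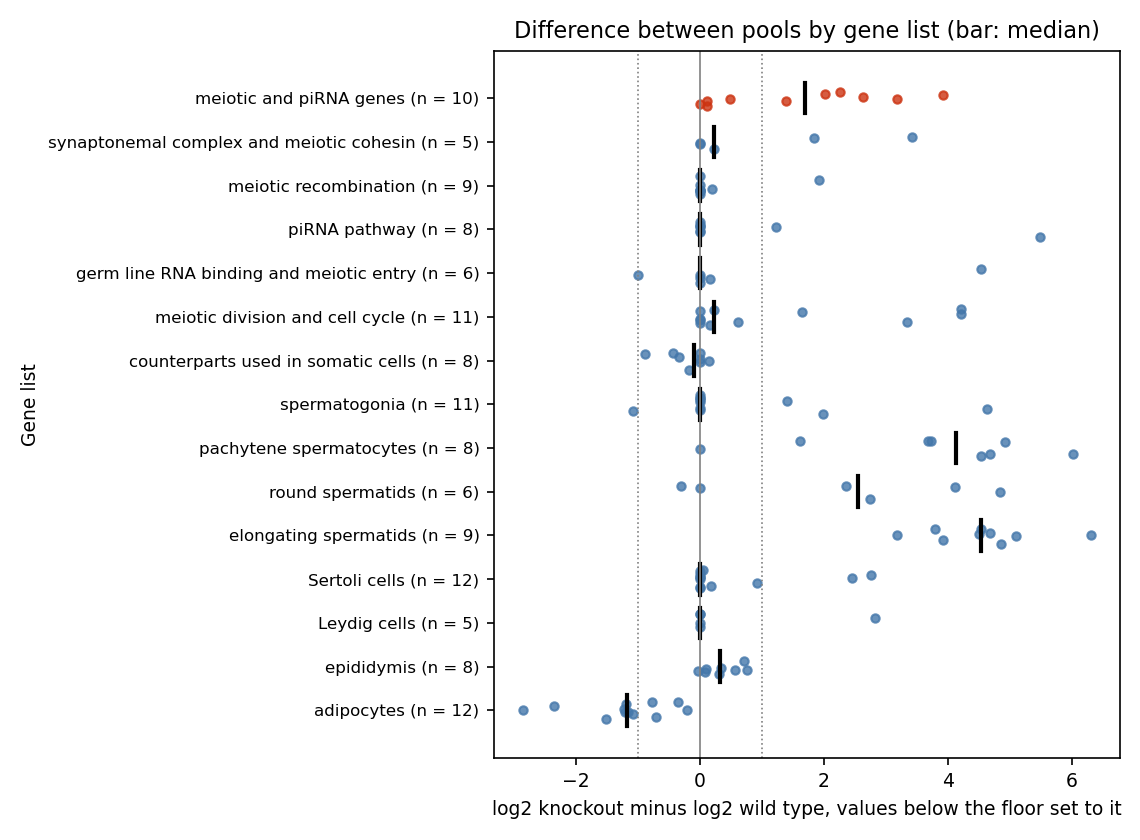
Difference between pools (x axis, log2 scale, knockout minus control, with values below the floor set to it) of each measured gene in the members (red) and in the other lists (blue), with the median of each list as a black bar and dotted lines at a 2-fold difference. Genes below the floor in both pools lie at 0, and the medians run from -1.18 for adipocytes to 4.53 for elongating spermatids, with the members at 1.70.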

How the data were processed

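Each array, 1 per genotype, measured adipose RNA combined from 5 animals. The deposited values are probe set intensities for which the authors used GCRMA 2.20, as the submitters' processing notes list. This method subtracts background predicted from probe sequence, equalises the distributions of arrays and combines the probes of a set; dim probe sets are drawn together, which can enlarge folds near background. The values span 1.91 to 36322, a linear scale, and log2 was taken here. Whether other arrays entered the normalisation is unknown here. The design text and the annotation supplied name different arrays of the same family.

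Probe sets were named from the annotation, with symbols updated through Entrez identifiers to GRCm38.p6: 20393 named 1 gene (20364 updated this way, 29 as annotated), 691 several and 1606 none, and the last 2 kinds were left out. No gene was filtered out; values under log2 of 5 were set to it for counts of at least 2-fold differences. Members and lists were chosen with earlier results of these data known. Named genes are all members, the 2 genes at each end of each other list, the measured somatic counterparts (1 is not reported here) and the 5 genes nearest to Sycp3. Cst12 is an exception, chosen after its values were seen. The counting was tested on simulated data in which only genes that reached the floor in control fat were changed. Changes in genes below it there, as most members were, were not simulated. Identities between the members' proteins, which had been planned, were not analysed here. Python 3.11.15, pandas 2.3.3 and statsmodels 0.14.6 were used. Alternatives changed the floor, the fold, the choice of probe set and the scaling.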

Additional observations from a re-analysis of the deposited data

How the results depend on the processing

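The count of members at least 2-fold higher was 5 to 8 of 10 across the floor, scaling, fold and probe set alternatives, within 1.5 times the 6 reported. Over all genes the share was 5.99% as reported, 4.67% with a floor of log2 6 and 7.89% without a floor. It was 3.02% with a fold of at least 4 and 9.56% with a fold of at least 1.5. Leaving out probe sets with the suffixes _x_at, _s_at and _a_at left 7 members, 5 of them at least 2-fold higher, against 5.18% of all genes. The median difference of members, 1.70 with a floor of log2 5, was 2.32 when the floor was lowered to log2 4, 0.70 when it was raised to log2 6, 2.64 without any floor, 1.23 with the probe set of lowest difference and 2.02 without the suffixed probe sets; a shift under 0.22, the median SD of the difference between probe sets of 1 gene, was taken as no move. The floor sets the size of a bound by construction. The count over the 39 measured genes of the 5 germ line pathway lists, 10, was 18 without a floor and 6 with a fold of at least 4. Of all genes, 7.89% and 3.02% were called in these settings. Counts of single lists moved by over 1.5 times in 15 cases, 8 upwards and 7 downwards, in lists with 0 to 7 such genes; the counts for Sertoli and Leydig cells were 5 and 2 without a floor, and that for spermatogonia was 1 at a fold of at least 4. No called direction of a member reversed, but a change of floor or fold could not have reversed one. The changes of scaling raised the median over all genes by 0.07 and 0.09, so they could hardly have reversed a higher member. Only Dazl and Dmc1 have a second probe set to choose. No paired analysis was possible because each genotype has 1 array. Signal also limits these results: 8 of 10 members lay under the floor in control fat, so the folds of 7 are bounds, and Dmc1, under it in both pools, has none.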

Other observations

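Sycp3 was measured above the floor in both pools, which allowed genes of similar difference to be looked up. Among genes above the floor on both arrays and outside all lists, the 5 with a log2 difference nearest to its 2.25, over these 2 arrays, were Bbx (46.2 in control fat and 220 in knockout fat), Rdh11, a retinol dehydrogenase (107 and 507), Aptx, a DNA end-processing enzyme (39.3 and 189), Kpna2, a nuclear import receptor (208 and 1000.2), and Supt20 (247 and 1168). Their differences ran from 2.24 to 2.27. Likeness over 2 arrays is a single difference and carries no information on shared function.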
